A study of Mus musculus with 20 samples.

Results

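The comparison described here is P300 siRNA against control in mouse embryos at the late 2-cell stage, measured by RNA sequencing. It holds 4 of the 20 libraries of the study: 2 from embryos labelled as P300 knockdown and 2 from embryos labelled WT that served as control. The libraries were chosen by their labels, and every gene of the count table entered the comparison. Knockdown and control embryos were sampled at 4 stages, from the late 2-cell over the 4-cell to the early and then the late 8-cell stage, and the study holds 10 groups of 2 libraries. At the late 8-cell stage there were also 2 groups labelled as rescue of the knockdown, I1394G and NaCr. All embryos, control included, were cultured from the zygote in KSOM, a simple medium for early embryos, and libraries were made from whole embryos with the Smart-seq2 protocol. The labels used here do not say how many embryos went into a library, what the control embryos received, or whether replicates came from separate collections, so p-values below measure the spread between these libraries, which may be technical.

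P300, the product of Ep300, is a large transcriptional coactivator that writes acetyl and crotonyl groups onto histone lysines, and CBP, the product of Crebbp, is its closest paralogue. In the mouse the embryonic genome is switched on at the 2-cell stage, while messenger RNA stored by the oocyte is being degraded. The study's title names histone crotonylation as its subject, and the late 2-cell libraries give the state of the transcriptome soon after genome activation, before the stages at which the other libraries were taken.

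The 4 libraries held 5371159 and 9511560 counted reads in the siRNA group and 11465210 and 8101600 in the control group. With every library thinned to the smallest total, 17601 and 17567 genes had a read in the siRNA libraries, against 17700 and 17446 in the control libraries. Across 16603 genes the log2 levels correlated at 0.9752 between the siRNA replicates and at 0.9787 between the control replicates, and at 0.9672 to 0.9738 between libraries of different groups. In the deposited FPKM table, whose values are fragments scaled by transcript length and library size, the late 2-cell columns summed to 394621 to 399622, and those of the other 16 libraries to 495248 to 585216. The late 2-cell libraries thus stood apart from the other 16 in that sum. A level that differs between the late 2-cell and a later stage cannot be told apart from a difference between these sets of libraries. Levels below are CPM, counts scaled by library size with composition factors (TMM), unless FPKM is named.

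Most of the stage markers set beforehand fitted the label. Zfp352, a gene of the 2-cell transcript burst, had 407 and 504 CPM in siRNA embryos and 411 and 408 CPM in controls, and averaged 10.1 CPM in siRNA and 13.5 CPM in control embryos at the 4-cell stage. Zscan4d, a 2-cell gene tied to telomere maintenance, had 134 and 121 CPM in siRNA embryos and 159 and 118 CPM in controls, and averaged 0.884 and 2.36 CPM in siRNA and control embryos of the 4-cell stage. The stored oocyte factor Gdf9 was still present, at 231 and 291 CPM in siRNA embryos against 323 and 354 CPM in controls. Zscan4c, Usp17lc and the stored Nlrp5 were also far lower at the 4-cell stage. Tdpoz4 and Zp3 fell less, to means of 37.5 and 32.1 CPM in siRNA and 58.1 and 31.3 CPM in control embryos. Stored Dppa3 went the other way. It had 2025 and 2096 CPM in siRNA embryos and 2239 and 2194 CPM in controls. Its 4-cell means were 5443 CPM in siRNA and 9094 CPM in control embryos. Markers of other cells were low. The 12 cumulus and granulosa genes summed to 11.8 and 11.7 CPM in siRNA embryos and 14.2 and 14.0 CPM in controls, with Amh, Ptx3 and Inhba at 0 in all 4 libraries. The 8 blood genes summed to 5.25 and 5.56 CPM against 4.41 and 3.34 CPM in controls, with the globin genes Hba-a1, Hba-a2, Hbb-b1 and Hbb-b2 at 0. The 9 fibroblast and oviduct genes summed to 10.8 and 10.7 CPM against 9.70 and 6.06 CPM in controls, with Col3a1 and Krt5 at 0, and the 7 sperm genes to 2.04 and 2.17 CPM against 2.72 and 2.09 CPM in controls, with Tnp2 and Smcp at 0.

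The siRNA's target was low in both knockdown libraries. Ep300 had 22.6 and 29.9 CPM in siRNA embryos and 86.1 and 83.8 CPM in controls, so that the siRNA mean was 30.9% of the control mean. Both siRNA libraries lay far below both controls. The log2 fold change was -1.69 ± 0.37 (SE, 95% interval -2.46 to -0.92). In edgeR's quasi-likelihood test with the spread of all 10 groups and Benjamini-Hochberg adjustment over 16603 genes, its adjusted p was 0.318. Over 13 other ways of processing, the log2 fold change stayed between -1.91 and -1.41 and the adjusted p ranged from 0.000178 to 1, with 4 of the 13 under 0.05. The lowest came from the fit of the 4 late 2-cell libraries alone. At the 4-cell and early 8-cell stages Ep300 was lower in siRNA embryos too, with log2 fold changes of -2.15 at both (adjusted p = 0.00128 and 0.000819), and at the late 8-cell stage it was -0.36 (adjusted p = 0.5). Here and below, the 8-cell values rest in part on 2 libraries in doubt. Control early 8-cell replicate 2 had an FPKM column that did not match its counts, and siRNA late 8-cell replicate 1 was the shallowest library. The late 2-cell and 4-cell effects on Ep300 differed by 0.46 ± 0.51, with an adjusted p of 0.664 by edgeR's test.

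For Crebbp no difference was detected. It had 286 and 294 CPM in siRNA embryos and 290 and 278 CPM in controls, with a log2 fold change of 0.03 ± 0.23 and an interval of -0.46 to 0.52. Per length, Crebbp RNA was the more abundant of the pair in both groups, at 48.5 and 47.5 FPKM in siRNA embryos and 45.9 and 43.8 FPKM in controls. Ep300 stood at 3.30 and 4.13 FPKM in siRNA embryos and at 11.7 and 11.3 FPKM in controls. A level in these bulk libraries does not tell fewer cells with a transcript from less transcript per cell.

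Across all genes, 1 of 16603 passed an adjusted p of 0.05, which is 0.00602% of those tested. That gene was Wdfy1, and it was higher in siRNA embryos. At an unadjusted p under 0.05 there were 689 genes (4.15%), 382 higher (2.3%) and 307 lower (1.85%) in siRNA embryos. The median log2 fold change over all genes was -0.04. Of 8270 genes with at least 10 CPM in the higher group, 56 were at least 2-fold higher and 29 at least 2-fold lower in siRNA embryos, whether or not they passed a test. The scatter of fold changes against level shows how far Ep300 and Wdfy1 lie from genes of like abundance.

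**Figure D1:**
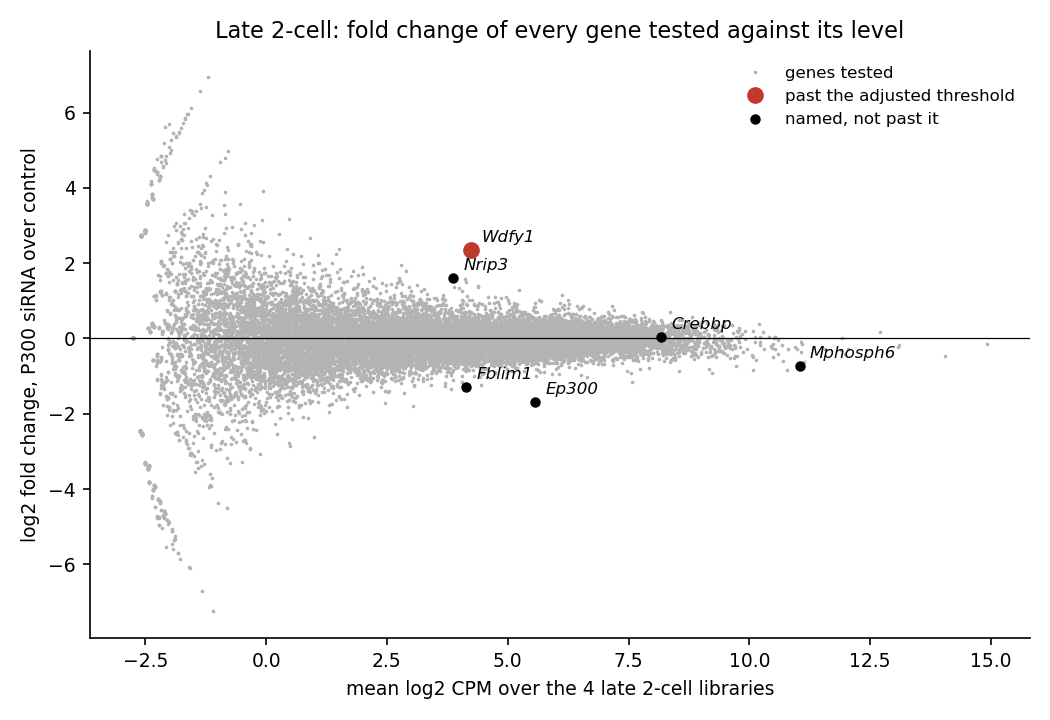
Log2 fold change of P300 siRNA over control (vertical axis) against the mean log2 CPM of the 4 late 2-cell libraries (horizontal axis), 1 grey point per gene tested. Wdfy1 (red) is the gene past the adjusted threshold, and Ep300, Crebbp, Nrip3, Mphosph6 and Fblim1 (black) are named but not past it.

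The number of genes that passed differed between fits. The late 2-cell replicates were closer to each other than most, with a biological coefficient of variation of 12.6% in the siRNA pair and 14.5% in the control pair. In the other 8 groups it ran from 14.4% to 56.7%, with 45.1% in the 4-cell siRNA pair and 56.7% in the 4-cell controls, and the value shared by all 20 libraries was 30.6%. A fit of the 4 late 2-cell libraries alone, with a shared value of 13.3%, its own filter and its own scaling, gave 508 calls among 13895 genes (3.66%), 330 higher (2.37%) and 178 lower (1.28%) in siRNA embryos. Those 508 genes had a median absolute log2 fold change of 0.72, 464 of them had at least 10 CPM, and 252 also had an unadjusted p under 0.05 with the spread of all 10 groups. The median standard error of a log2 fold change, over genes with at least 10 CPM, was 0.171 in the fit of the 4 libraries and 0.309 in the fit of the 20. With 2 libraries a group, either spread is poorly known. What part of the difference between the fits came from the spread, the filter or the scaling was not tested. For every gene whose adjusted p in the fit of the 4 libraries is printed below, some other alternative gave an adjusted p of 1.

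Wdfy1 encodes a protein with a FYVE domain, which binds the endosomal lipid PI3P, and acts as an adaptor in Toll-like receptor signalling. It had 55.4 and 31.4 CPM in siRNA embryos (380 and 361 reads) and 6.61 and 10.5 CPM in controls (90 and 101 reads). The groups did not overlap, but the siRNA libraries differed from each other by more than the control libraries did. The log2 fold change was 2.34 ± 0.31 (adjusted p = 0.00779 by edgeR's test), a 5.07-fold higher level. The adjusted p was 0.273 without siRNA replicate 1, 0.74 without control replicate 1 and 1 in a fit of only the 8 late 2-cell and 4-cell libraries. In 10 of 13 alternatives the gene passed, and over all 13 its log2 fold change was between 1.88 and 2.70, with adjusted p up to 1. Mrpl44, a mitochondrial ribosomal protein gene whose exons overlap those of Wdfy1 on the opposite strand, had 12.8 and 14.1 CPM in siRNA embryos and 10.1 and 13.2 CPM in controls. Mrpl44 is named here because of that overlap, after its values were seen: nothing in the sources used here says that reads were counted by strand.

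At later stages the order of the groups was the other way round for Wdfy1. At the 4-cell stage siRNA embryos had 50.1 and 44.1 CPM and controls 126 and 85.1 CPM, and the log2 fold change was -1.17 (adjusted p = 0.0112 by edgeR's test). It was -1.24 at the early 8-cell stage (adjusted p = 0.00627) and -1.60 at the late 8-cell stage (adjusted p = 0.000639). The siRNA libraries thus stood between 31.4 and 55.4 CPM at all 4 stages. The controls were at 10.5 CPM or less at the late 2-cell stage and at 85.1 CPM or more afterwards. For these levels, stage cannot be told apart from the set of libraries, as said above. The test of the difference between the late 2-cell and 4-cell effects gave 3.51 ± 0.42 on the log2 scale (adjusted p = 0.000361).

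**Figure D2:**
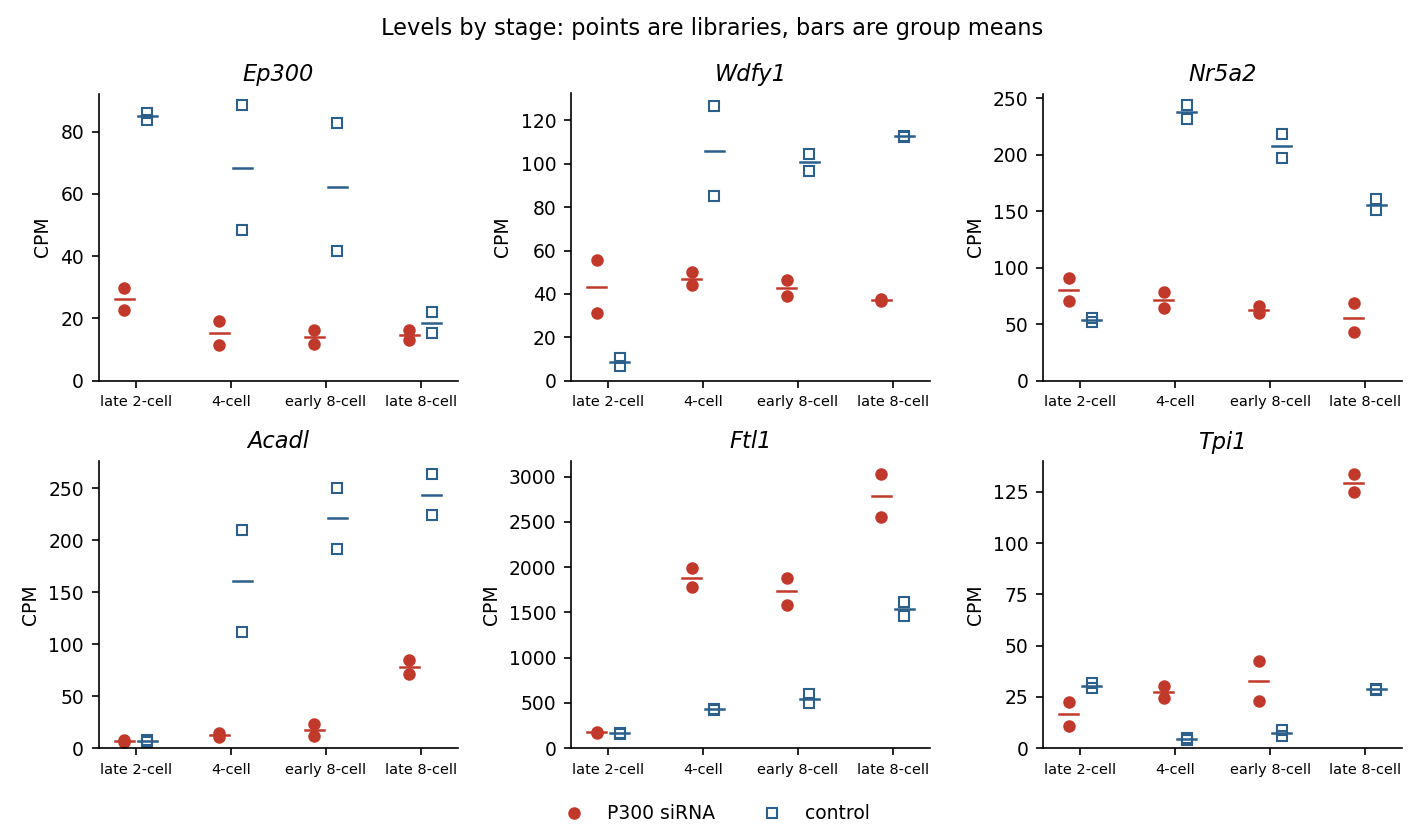
CPM of Ep300, Wdfy1, Nr5a2, Acadl, Ftl1 and Tpi1 at 4 stages (horizontal axis); filled circles are P300 siRNA libraries, open squares are control libraries, and short bars are the means of 2. Wdfy1 is higher in siRNA at the late 2-cell stage and lower in siRNA at the 3 later ones.

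Below Wdfy1, the genes with the lowest p among those higher in siRNA embryos were Polr2m, Nrip3, Eif3m, Ctnnb1, Tbrg1, Sarnp, Wdr18, Tma16 and Psmb1. None of the 9 passed the adjusted threshold with the spread of all 10 groups, where their adjusted p was 0.197 to 0.354, and all of them passed in the fit of the 4 libraries. In each, both siRNA libraries were above both controls, a condition of the rule by which they were named. Polr2m, which encodes a subunit of RNA polymerase II, had 47.9 and 42.9 CPM in siRNA embryos and 24.6 and 22.6 CPM in controls (log2 fold change 0.94 ± 0.17). Nrip3 had 29.2 and 21.7 CPM in siRNA embryos and 9.26 and 7.52 CPM in controls (1.59 ± 0.31). Ctnnb1, which encodes beta-catenin, the adhesion protein and effector of Wnt signalling, had 115 and 121 CPM in siRNA embryos and 59.7 and 76.8 CPM in controls (0.79 ± 0.17).

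Several of the others encode parts of the machinery that makes or removes proteins. Eif3m, a subunit of translation initiation factor eIF3, had 34.3 and 41.5 CPM in siRNA embryos and 21.5 and 21.9 CPM in controls (log2 fold change 0.81 ± 0.16). Wdr18 acts in maturation of the large ribosomal subunit and had 74.6 and 72.8 CPM against 43.6 and 30.1 CPM in controls. Psmb1, a beta subunit of the proteasome core, had 118 and 155 CPM against 68.3 and 90.8 CPM in controls. The remaining 3, Tma16 (a translation machinery associated protein), Sarnp (an mRNA export factor) and Tbrg1, had log2 fold changes of 0.88, 1.14 and 0.87.

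Among genes lower in siRNA embryos those with the lowest p after Ep300 included Mea1, Ttk, Nipal1, Fblim1, Mphosph6, Mrpl48, Lamtor5 and Stk11ip. Their adjusted p was 0.354 to 0.811 in the fit of 20 libraries. In the fit of the 4 libraries Lamtor5 and Stk11ip missed the threshold, at 0.0543 and 0.0841, and the other 6 passed. Mphosph6, which takes part in processing of ribosomal RNA with the exosome, was the most abundant, with 1628 and 1633 CPM in siRNA embryos and 2775 and 2655 CPM in controls. Its log2 fold change was -0.74 ± 0.18. Ttk, the kinase of the spindle assembly checkpoint, had 152 and 170 CPM in siRNA embryos and 269 and 293 CPM in controls (-0.80 ± 0.19). In both genes the distance between the groups was several times that between replicates, which largely follows from the rule by which they were named.

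Mea1 had 63.8 and 66.7 CPM in siRNA embryos and 135 and 120 CPM in controls (log2 fold change -0.96 ± 0.22). Fblim1, which encodes the filamin-binding protein migfilin, had 13.3 and 9.38 CPM against 22.2 and 33.0 CPM in controls (-1.29 ± 0.31). The rest were Nipal1 (a magnesium transporter), Mrpl48 (mitochondrial ribosome), Lamtor5 (a subunit of the lysosomal Ragulator complex) and Stk11ip (a partner of the kinase LKB1), with log2 fold changes of -0.99, -0.82, -0.86 and -0.93.

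**Figure D3:**
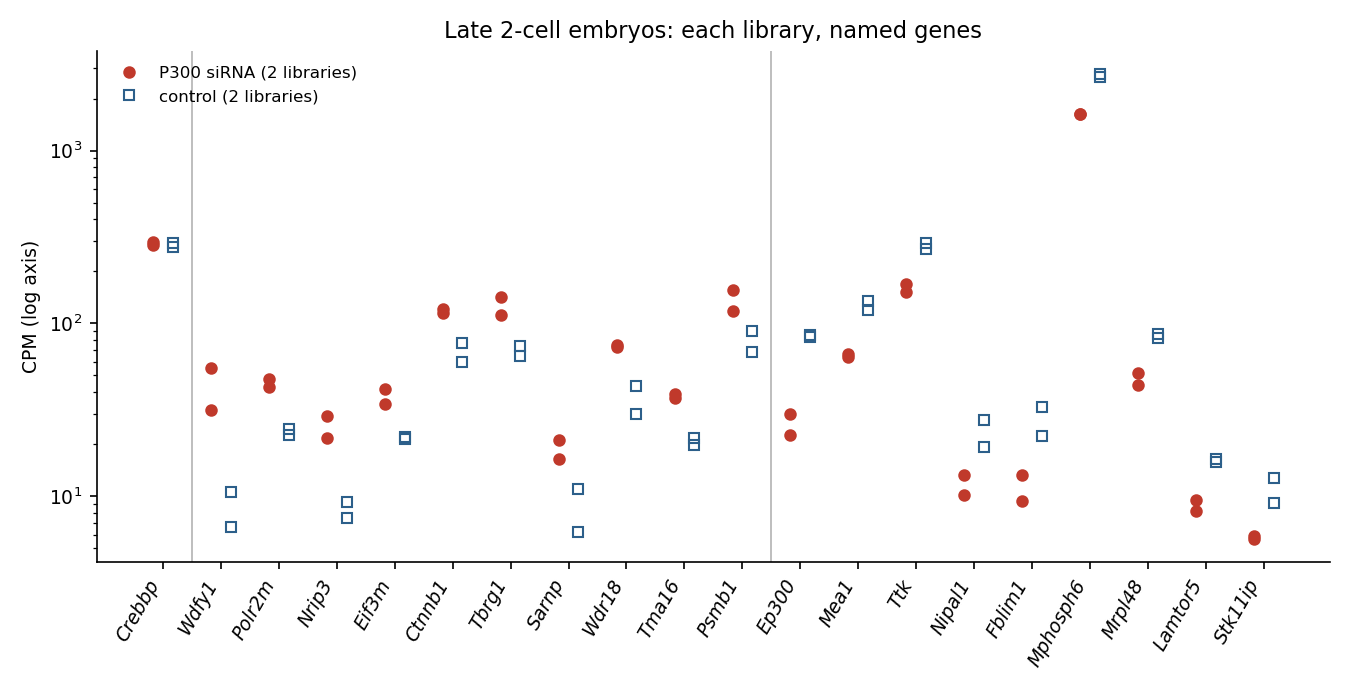
CPM on a log axis of each late 2-cell library for Crebbp, 10 genes with the lowest p among those higher and 9 among those lower in siRNA. Filled circles are the 2 P300 siRNA libraries and open squares the 2 controls; apart from Crebbp, the genes were named only if the groups did not overlap.

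Among the named genes with the lowest p, 3 had the same sign and passed at all 3 later stages, and 2 passed at all 3 with the opposite sign. At the 4-cell stage alone 7.77% of all genes were called higher and 7.25% lower. The share of all genes that passed at all 3 later stages was not counted, so these counts have no background to be read against. Nrip3 was higher in siRNA embryos than in controls at the 4-cell stage, with 21.3 and 23.9 CPM against 4.13 and 3.57 CPM (log2 fold change 2.56, adjusted p = 0.000109 by edgeR's test). Its log2 fold changes at the early and late 8-cell stages were 3.13 and 2.75. Nipal1 was lower in siRNA embryos at the 4-cell stage, with 178 and 134 CPM against 286 and 397 CPM in controls (-1.13, adjusted p = 0.00272 by the same test). Fblim1 was also lower in siRNA embryos at the 4-cell stage, with 13.1 and 9.26 CPM against 29.4 and 32.6 CPM in controls (-1.48, adjusted p = 0.00469 by the same test). For these 3 genes the difference between the late 2-cell and 4-cell effects did not pass, with adjusted p of 0.213, 0.882 and 0.88. The genes with the opposite sign were Wdfy1 and Tma16. Tma16 had 37.2 and 39.3 CPM in siRNA embryos and 21.7 and 19.7 CPM in controls at the late 2-cell stage, and 310 and 333 CPM against 567 and 457 CPM at the 4-cell stage (log2 fold change -0.67, adjusted p = 0.0258). The difference between those effects was 1.55 (adjusted p = 0.00621). Ctnnb1 passed at the 4-cell and early 8-cell stages, with log2 fold changes of 0.85 and 0.94, and not at the late 8-cell stage, where its log2 fold change was 0.16.

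Several named genes share exons with a neighbour in the GENCODE annotation, so that their reads cannot be told apart without strand. Eif3m overlaps Ccdc73, Ctnnb1 overlaps Ulk4, Tbrg1 overlaps Siae, Mea1 overlaps Klhdc3 and Ppp2r5d, and Mrpl48 overlaps Rab6a, each on the opposite strand, while Sarnp overlaps Dnajc14 on the same strand.

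Gene lists for processes of the early embryo held 1263 tested genes in 34 lists. Of these genes 1 was called with the spread of all 10 groups, Wdfy1, and 59 were called higher and 18 lower in the fit of the 4 libraries. At least 1 call fell in 27 of the lists in that fit. Over all genes it called 2.37% higher and 1.28% lower. At an unadjusted p under 0.05 in the fit of 20 libraries, 2.3% of all genes were higher and 1.85% lower. Counts below are to be read beside these shares. Medians below are log2 fold changes, to be read beside the median of all genes tested, -0.04, of which 45.0% were positive.

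The oocyte's stored transcripts had the lowest median of the 34 lists in the fit of 20 libraries, while in the fit of the 4 libraries replication-dependent histones were slightly lower, at -0.22 against -0.21. Of 54 tested members, 8 were positive and the median was -0.26, between -0.28 and -0.22 when any 1 library was left out. None was called with the spread of all 10 groups, 2 were lower and 0 higher at an unadjusted p under 0.05, and in the fit of the 4 libraries 9 of 53 were called lower and 0 higher. The lowest p belonged to Rfpl4, an oocyte ubiquitin ligase gene, with 482 and 383 CPM in siRNA embryos and 840 and 809 CPM in controls (log2 fold change -0.93 ± 0.30). Omt2b, the most abundant per length, had 3402 and 3554 CPM in siRNA embryos and 4653 and 4609 CPM in controls (-0.41 ± 0.44). The other members called in the fit of the 4 libraries, listed after their values were seen, were Npm2 (a histone chaperone of the egg), Bmp15 (a growth factor of the oocyte), Btg4 (an adaptor for deadenylation of maternal mRNA), Nlrp4e, Nlrp4f, Oog2 and Bcl2l10. Btg4 had 1888 and 1737 CPM in siRNA embryos and 2856 and 2718 CPM in controls, and Nlrp4f had 625 and 691 CPM against 1089 and 1106 CPM. In these genes both siRNA libraries were below both controls, which choosing them by a call in the same 4 libraries all but fixes.

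Genes of the deadenylation and decay machinery had a median of -0.11 (34 tested, 13 positive), with 1 higher and 2 lower at an unadjusted p under 0.05 and 1 higher and 3 lower in the fit of the 4 libraries. Ddx6, a helicase of mRNA decay bodies, was the higher one, at 65.4 and 66.4 CPM in siRNA embryos and 34.1 and 34.2 CPM in controls (log2 fold change 0.95 ± 0.28). Its adjusted p was 0.972 with the spread of all 10 groups and 0.00241 in the fit of the 4 libraries.

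Genes switched on at the 2-cell stage did not share a direction. Of 46 tested members 27 were positive, with a median of 0.09, and in the fit of the 4 libraries 3 were called higher and 2 lower. The median turned to -0.15 without siRNA replicate 2 and to -0.02 without control replicate 1. The 5 Zscan4 genes had a median of -0.05. Nr5a2, a nuclear receptor that activates genes at this stage, had 70.3 and 90.5 CPM in siRNA embryos and 51.9 and 55.4 CPM in controls (log2 fold change 0.59 ± 0.21, adjusted p = 1, and 0.0279 in the fit of the 4 libraries). Obox5, of the oocyte and early embryo homeobox family, had 838 and 781 CPM in siRNA embryos and 1444 and 1440 CPM in controls (-0.83 ± 0.38, adjusted p = 1, and 0.000665 in the fit of the 4 libraries). Obox genes are near-identical copies, and reads of such copies may have been assigned to either.

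In the fit of 20 libraries the highest medians were those of cytosolic ribosomal proteins and ribosome biogenesis factors. Cytosolic ribosomal proteins had a median of 0.25, with 76 of 81 tested members positive. None was called with the spread of all 10 groups, 6 were higher and 0 lower at an unadjusted p under 0.05, and 6 were called higher in the fit of the 4 libraries. Rpl41, the most abundant, had 516 and 698 CPM in siRNA embryos and 493 and 404 CPM in controls (log2 fold change 0.44 ± 0.26). Rpl34 had the lowest p, at only 2.63 and 4.08 CPM in siRNA embryos and 0.955 and 1.04 CPM in controls. Ribosomal protein genes have many processed copies in the genome, so single values are uncertain.

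Ribosome biogenesis factors had a median of 0.20, with 67 of 82 positive, 8 higher and 1 lower at an unadjusted p under 0.05, and 5 higher in the fit of the 4 libraries. Emg1, a methyltransferase for ribosomal RNA, had 98.6 and 119 CPM in siRNA embryos and 71.4 and 72.9 CPM in controls (log2 fold change 0.59 ± 0.16), and the abundant nucleolar protein gene Npm1 had 500 and 558 CPM against 463 and 505 CPM (0.13 ± 0.15). Within the list, the 71 processing factors had a median of 0.21 and the 11 RNA polymerase I genes one of 0.13. Next came splicing factors, with a median of 0.16 (34 of 47 positive, 2 higher and 1 lower at an unadjusted p under 0.05, 1 called higher in the fit of the 4 libraries). Integrated and endoplasmic reticulum stress genes had a median of 0.15 (18 of 27 positive), with 0 at an unadjusted p under 0.05 by edgeR's test and 2 called higher in the fit of the 4 libraries. Chaperones had a median of 0.15 (19 of 29 positive), with 4 higher at an unadjusted p under 0.05 and 4 called higher in the fit of the 4 libraries. Translation initiation factors had a median of 0.15 (24 of 38 positive) and proteasome subunits one of 0.12 (23 of 31 positive), each with 4 higher at an unadjusted p under 0.05 and 2 called higher in the fit of the 4 libraries.

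The siRNA replicates were not alike in these lists. Measured as the median deviation of members from the mean of the 4 libraries, ribosomal proteins stood at -0.01 in siRNA replicate 1 and 0.26 in siRNA replicate 2, against -0.16 and -0.07 in the controls. Ribosome biogenesis factors stood at -0.03 and 0.23 in the siRNA libraries and at -0.17 and -0.03 in the controls. Without siRNA replicate 2 the median log2 fold change of ribosomal proteins was 0.10, that of ribosome biogenesis factors 0.05 and that of proteasome subunits -0.001, where the median of all genes was -0.09. Without siRNA replicate 1 the medians of ribosomal proteins and biogenesis factors were 0.38 and 0.34. The stored oocyte transcripts stood at -0.16 and -0.08 in the siRNA libraries and at 0.16 and 0.13 in the controls. The groups did not overlap in that list, nor in others, ribosomal proteins and chaperones among them. They also did not overlap in lists with medians close to that of all genes. Acyl-CoA supply stood at -0.05 and -0.06 in the siRNA libraries and 0.11 and 0.03 in the controls. DNA methylation stood at -0.09 and -0.004 against 0.01 and 0.03. How many lists would separate by order alone with 2 libraries a group was not worked out, so the separation has no background to be read against.

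**Figure D4:**
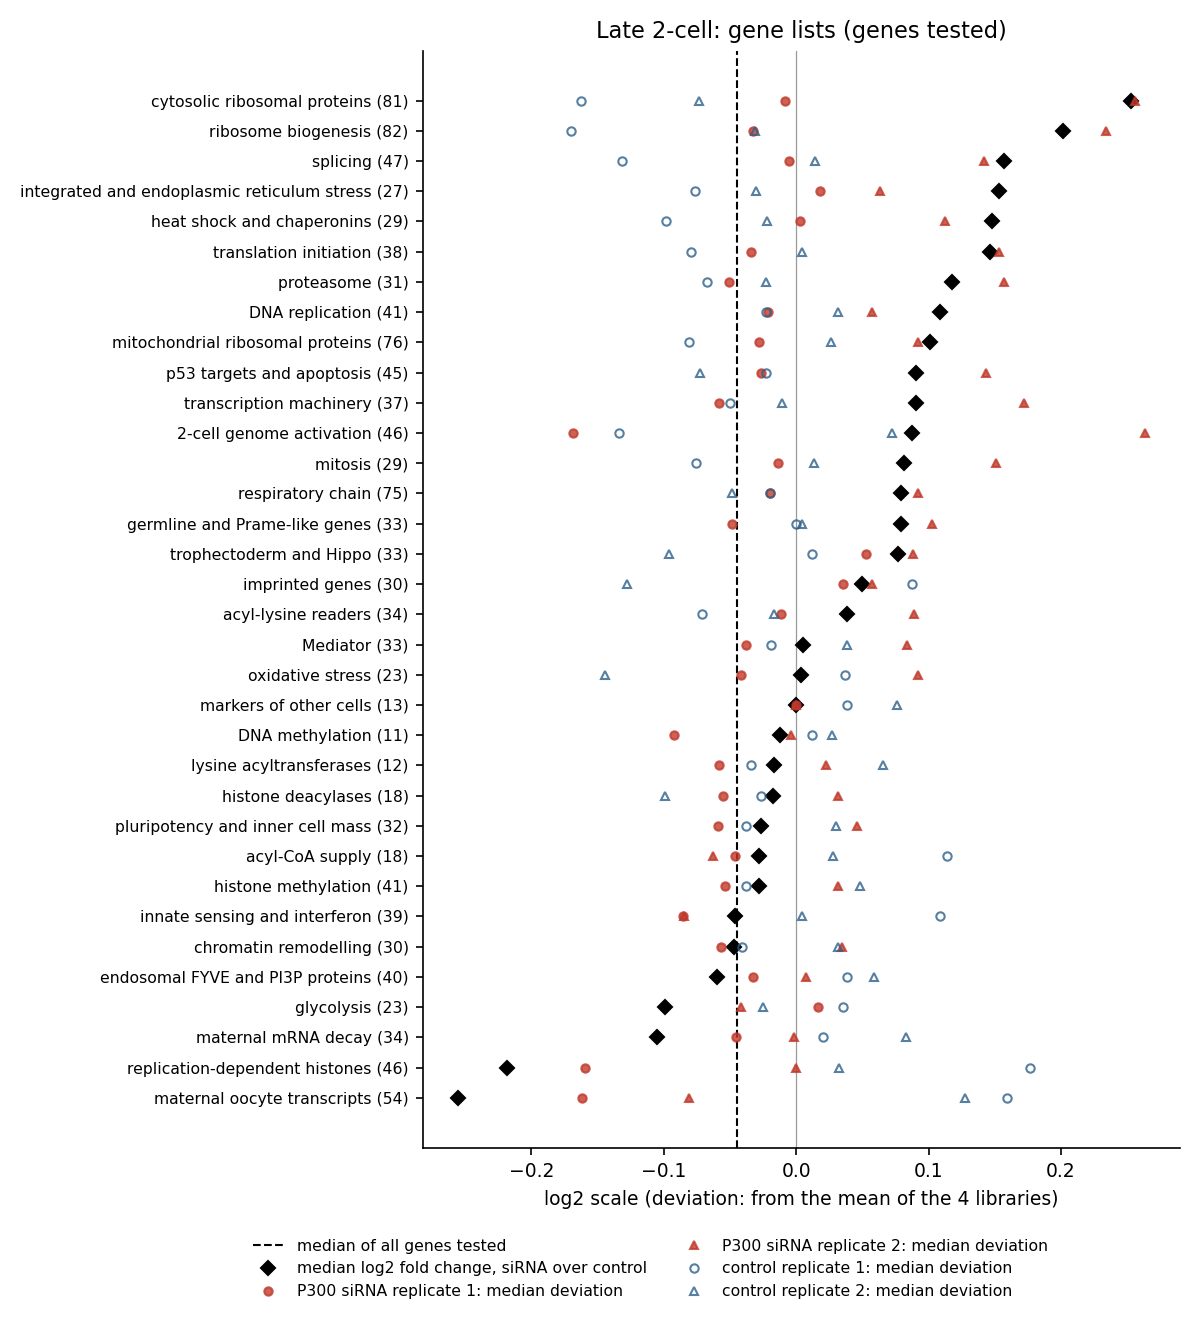
Median log2 fold change of each gene list, P300 siRNA over control (black diamonds), with the median deviation of its members from the mean of the 4 libraries in each siRNA library (filled red) and each control library (open blue); the dashed line is the median of all genes tested, -0.04. Numbers after the names are genes tested. Oocyte transcripts lie lowest and ribosomal proteins highest, and siRNA replicate 2 (triangles) lies to the right of siRNA replicate 1 in most lists.

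Replication-dependent histone genes had a median of -0.22 (14 of 46 positive), with 0 past an unadjusted p of 0.05 in either direction by edgeR's test and 0 of 18 called in the fit of the 4 libraries. The median ran from -0.41 to -0.05 when 1 library was left out. Most of these genes were near the detection limit. H2bc18, the most abundant per length, had 6.27 and 5.21 CPM in siRNA embryos and 8.60 and 6.16 CPM in controls.

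Few enzymes or readers of lysine acylation other than Ep300 had a low p. The 10 further acyltransferases of the GNAT and MYST families had a median of -0.02 with 0 past an unadjusted p of 0.05, and the 18 deacylases one of -0.02, also with 0; in the fit of the 4 libraries Ep300 was the only one of the 12 acyltransferases called and 0 of 16 deacylases were. Hdac1, a class I deacetylase, had 162 and 188 CPM in siRNA embryos and 141 and 161 CPM in controls (log2 fold change 0.21 ± 0.16). Enzymes that supply acetyl-CoA and crotonyl-CoA had a median of -0.03, and Acadm, a medium-chain acyl-CoA dehydrogenase, had 73.8 and 91.3 CPM in siRNA embryos against 119 and 95.5 CPM in controls (-0.38 ± 0.17). Among 34 readers of acylated lysine, Brd3, a bromodomain protein, had 73.5 and 72.3 CPM in siRNA embryos and 50.3 and 53.8 CPM in controls (0.49 ± 0.20), and 3 readers were called higher in the fit of the 4 libraries. None of these values passed with the spread of all 10 groups.

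Of 45 tested p53 targets and apoptosis genes, with a median of 0.09, 4 were higher and 0 lower at an unadjusted p under 0.05, where 2.3% of all genes were higher and 1.85% lower, and 6 of 42 were called higher in the fit of the 4 libraries. Phlda3, a p53 target with the lowest p of the list, had 12 and 14 reads in siRNA embryos and 0 and 1 in controls, too few for a fold change. The antiproliferative gene Btg2, named after its values were seen, had 117 and 101 CPM in siRNA embryos and 50.8 and 56.2 CPM in controls (log2 fold change 1.02 ± 0.33, adjusted p = 0.986), and was among the 6 called in the fit of the 4 libraries. Oxidative stress genes had a median of 0.003 (12 of 23 positive), with 2 higher and 0 lower at an unadjusted p under 0.05 and 2 called higher and 1 lower in the fit of the 4 libraries. The one called lower, Prdx2, a peroxiredoxin gene named after its values were seen, had 689 and 726 CPM in siRNA embryos and 1000.4 and 942 CPM in controls. The metallothionein genes Mt1 and Mt2, which bind zinc and other metals, were at 422 and 417 CPM and at 274 and 286 CPM in siRNA embryos, against 259 and 261 CPM and 166 and 175 CPM in controls. Their log2 fold changes were 0.69 ± 0.40 and 0.71 ± 0.28, with adjusted p of 1 for both and of 0.00163 and 0.00186 in the fit of the 4 libraries. Cct6a, a chaperonin subunit, had 182 and 198 CPM in siRNA embryos and 113 and 142 CPM in controls (0.58 ± 0.17).

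Pluripotency and inner cell mass genes had a median of -0.03 (32 tested, 1 higher and 1 lower at an unadjusted p under 0.05), with 2 called higher and 1 lower in the fit of the 4 libraries. Trophectoderm and Hippo genes had a median of 0.08 (33 tested, 1 higher and 0 lower), with 2 of 31 called higher in that fit. Glycolysis genes had a median of -0.10, against 1.43 for the same genes at the 4-cell stage. At the late 2-cell stage 2 of the 23 glycolysis genes were higher and 1 lower at an unadjusted p under 0.05, and 1 was called higher in the fit of the 4 libraries. That gene was Ldha, a lactate dehydrogenase subunit named after its values were seen, with 73.4 and 85.3 CPM in siRNA embryos and 54.5 and 45.1 CPM in controls. Tpi1, the triose phosphate isomerase of glycolysis, had 22.5 and 10.7 CPM in siRNA embryos and 31.6 and 29.1 CPM in controls at the late 2-cell stage (log2 fold change -0.89 ± 0.34, adjusted p = 1). At the 4-cell stage it had 30.3 and 24.5 CPM in siRNA embryos and 4.85 and 3.76 CPM in controls (2.68, adjusted p = 0.0002 by edgeR's test). The larger change in Tpi1 level between the stages was the lower level in controls. Innate sensing and interferon genes had a median of -0.05 with 0 of 39 past an unadjusted p of 0.05 in either direction, and 1 of 32 was called higher in the fit of the 4 libraries.

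Lists for cell division and mitochondria held members of both signs. Mitosis genes had a median of 0.08 (20 of 29 positive, 2 higher and 1 lower at an unadjusted p under 0.05), and in the fit of the 4 libraries 3 were called higher and 1 lower. The abundant mitotic cyclin gene Ccnb1 had 1079 and 1241 CPM in siRNA embryos and 1208 and 1251 CPM in controls, so that the groups overlapped. Respiratory chain genes had a median of 0.08 (46 of 75 positive, 7 higher and 2 lower at an unadjusted p under 0.05), with 3 called higher in the fit of the 4 libraries. Mitochondrial ribosomal proteins had a median of 0.10 (49 of 76 positive), yet 3 were higher and 7 lower at an unadjusted p under 0.05, and 1 was called higher and 1 lower in the fit of the 4 libraries. The list of endosomal FYVE and PI3P proteins, which holds Wdfy1, had a median of -0.06 with 16 of 40 positive and 2 called higher in the fit of the 4 libraries.

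The genes that separated siRNA from control embryos at the 4-cell stage had no common direction at the late 2-cell stage. At the 4-cell stage 1290 genes were called higher (7.77% of those tested) and 1204 lower (7.25%) in siRNA embryos, by the same fit and with no library in common with the late 2-cell comparison. The 1290 had a median log2 fold change of 1.96 at the 4-cell stage and -0.05 at the late 2-cell stage, where 44.8% were positive. The 1204 had medians of -1.30 and -0.03, with 45.3% positive at the late 2-cell stage. For all genes the share positive was 45.0%. At the late 2-cell stage 53 of the 1290 (4.11%) were higher and 36 (2.79%) lower at an unadjusted p under 0.05, and 43 of the 1204 (3.57%) were higher and 40 (3.32%) lower. Over all genes the shares were 2.3% and 1.85%, so both sets held larger shares of low p in both directions; no test of this was made. Of the 508 genes called in the fit of the 4 late 2-cell libraries, 123 were also called at the 4-cell stage, where 7.77% of all genes were called higher and 7.25% lower. The shared calls did not keep their direction. Among the 1290 genes higher at the 4-cell stage, that fit called 39 higher and 17 lower at the late 2-cell stage. Among the 1204 lower at the 4-cell stage, it called 44 higher and 23 lower.

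**Figure D5:**
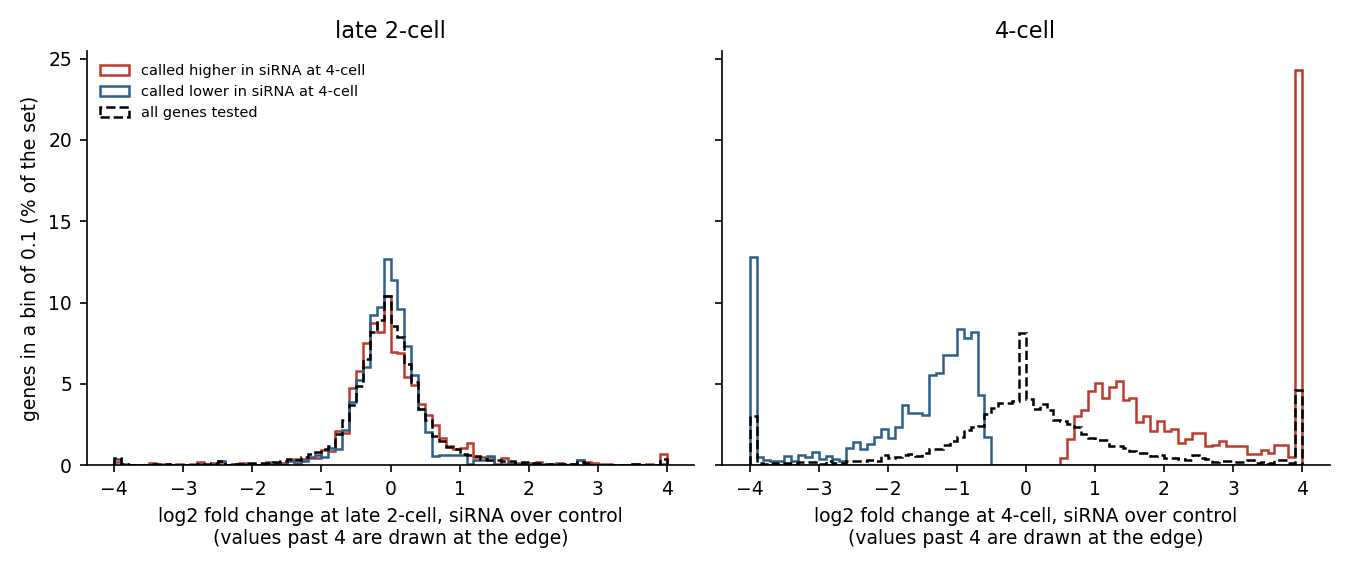
Distribution of log2 fold changes, P300 siRNA over control, at the late 2-cell stage (left) and the 4-cell stage (right), as percent of the genes of each set in bins of 0.1, with values past 4 drawn at the edge. The genes called higher (red) and lower (blue) at the 4-cell stage lie apart on the right, where the calls were made, and both lie over the curve of all genes (dashed) on the left.

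The difference between the siRNA effects at the 2 stages was tested directly. It passed an adjusted p of 0.05 for 710 of 16603 genes (4.28%). Of these, 675 were also called at the 4-cell stage, whose contrast is part of the difference tested. The difference (late 2-cell minus 4-cell log2 fold change) passed as positive for 316 (1.9% of those tested) and as negative for 394 (2.37%). The count fell to between 111 and 241 when any 1 late 2-cell library was left out. Acadl, a long-chain acyl-CoA dehydrogenase, averaged 6.92 ± 0.942 CPM in siRNA embryos and 6.51 ± 1.39 CPM in controls at the late 2-cell stage (SD, n = 2 each). At the 4-cell stage it averaged 12.8 ± 2.46 CPM in siRNA embryos and 161 ± 69.3 CPM in controls, and the difference of the effects was 3.73 ± 0.48 (adjusted p = 0.000748). Nr5a2 had 78.7 and 64.4 CPM in siRNA embryos at the 4-cell stage and 232 and 244 CPM in controls, and the difference was 2.32 ± 0.31 (adjusted p = 0.000756). For both genes the controls stood far higher at the 4-cell than at the late 2-cell stage, and the siRNA libraries did not.

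Ftl1, the ferritin light chain, had 182 and 171 CPM in siRNA embryos and 156 and 173 CPM in controls at the late 2-cell stage. At the 4-cell stage it had 1987 and 1778 CPM in siRNA embryos and 425 and 432 CPM in controls, and the difference of the effects was -2.03 ± 0.24 (adjusted p = 0.000352). Ier3, an immediate early gene, had 4.82 and 3.91 CPM in siRNA embryos and 13.2 and 10.3 CPM in controls at the late 2-cell stage (log2 fold change -1.44 ± 0.40, adjusted p = 0.844). At the 4-cell stage Ier3 had 33 and 127 reads in siRNA embryos and 2 and 1 in controls. Stat6, a transcription factor of interleukin signalling whose exons overlap those of Nab2, had 20.3 and 23.1 CPM in siRNA embryos and 35.8 and 32.9 CPM in controls at the late 2-cell stage, and 93 and 274 reads against 0 and 0 at the 4-cell stage.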

How the data were processed

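The authors deposited 2 tables for 20 libraries, a table of read counts per gene and a table of FPKM values, both by gene symbol. Per the submitters' processing notes, the tools were Cufflinks 2.2, HISAT2 2.2.1, cutadapt 4.1 and bcl2fastq 2.20.0.422, with no order given, on mouse build mm9; the counting program and its strand setting are not given in the sources used here. The deposited counts have 25208 genes, and every column matched a sample by name. Genes were kept by edgeR's filterByExpr (16603), scaled by TMM and tested with edgeR 4.0.16 (R 4.3.3, quasi-likelihood F test, 10 groups, 1 coefficient each, two-sided, Benjamini-Hochberg, threshold 0.05). CPM values are on these scaled library sizes. Standard errors are the log2 fold change over the root of the F statistic, and 95% intervals use the fit's degrees of freedom. Alternatives were other size factors, DESeq2 1.42.0, no filter, fewer libraries, a replicate block, and limma 3.58.1 on log2(FPKM + pseudocount) of the deposited FPKM values.

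Named genes are Ep300 and Crebbp, every called gene, and the 10 lowest p of each direction whose higher group averaged 10 CPM or more and whose groups do not overlap, unnamed gene models left out. Also named are the lowest p and the highest FPKM of each list, and the 5 lowest p of each direction of the stage difference; 1 gene that the rule selects is not reported here. The comparison and the lists were chosen with earlier results of these data known. The tests were run on simulated data: edgeR's fits made few false calls, and the fit of 20 libraries missed most changes of 2-fold or less. Each fit was simulated with the spread that it had itself estimated, so its few false calls cannot tell whether that spread is right. On the simulated data limma was run on log2(CPM + 1), not on FPKM, and made more false than true calls. Its counts on the deposited FPKM values were not checked in that way and are given only as an alternative. Exon overlaps came from GENCODE on another mouse build (GRCm38), and no coordinates are printed.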

Additional observations from a re-analysis of the deposited data

Results flagged for a closer look

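The siRNA effect differed between the late 2-cell and 4-cell stages for 710 genes by the test of the difference itself, as described above. The differences that follow are the late 2-cell minus the 4-cell log2 fold change. Of the genes with the lowest p, the difference was positive for Wdfy1 (3.51), Acadl (3.73), Nedd4l (2.61), Nr5a2 (2.32) and Tmem50b (2.13). Nedd4l, a ubiquitin ligase gene, averaged 102 ± 10.3 CPM in siRNA embryos and 93.6 ± 12.2 CPM in controls (SD, n = 2 each) at the late 2-cell stage, and 8.65 and 8.29 CPM against 50.7 and 44.0 CPM at the 4-cell stage. Tmem50b, a membrane protein gene, had 243 and 268 CPM in siRNA embryos and 170 and 197 CPM in controls at the late 2-cell stage, and 441 and 374 CPM against 1370 and 1192 CPM at the 4-cell stage.

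The difference was negative for Stat6 (-11.3), Magea10 (-8.54), Ier3 (-7.29), Rab4a (-5.75) and Ftl1 (-2.03). The first 4 had 0 to 4 reads in each 4-cell control library, so the size of their difference depends on the small count that the fit adds, and the reads carry the result. Magea10 had 155 and 803 reads in siRNA embryos and 0 and 4 in controls at the 4-cell stage, and 22.3 and 23.3 CPM against 32.3 and 30.6 CPM at the late 2-cell stage. Rab4a, a GTPase of endosome recycling, had 78 and 137 reads in siRNA embryos and 4 and 3 in controls at the 4-cell stage, and 50.3 and 51.4 CPM against 73.7 and 64.4 CPM at the late 2-cell stage. The replicates of the 4-cell groups differed from each other more than those of the late 2-cell groups, and the part of that spread in these differences was not tested.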

How the results depend on the processing

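The 1 call at the late 2-cell stage became 32 with DESeq2, 12 with no low-count filter, 508 in the fit of the 4 late 2-cell libraries, 0 in the fit of the 8 late 2-cell and 4-cell libraries (504 at an unadjusted p under 0.05), 79 and 12 with limma at pseudocounts of 1 and 0.1, and 0 to 1 when a library was left out. The Ep300 log2 fold change passed with DESeq2 (-1.69, adjusted p = 0.00569), with no filter (-1.69, adjusted p = 0.00327), in the fit of 4 libraries (-1.64, adjusted p = 0.000178) and with limma at a pseudocount of 1 (-1.41, adjusted p = 0.0469). It was -1.91 to -1.51 with a library left out. The 710 genes of the stage difference became 1424 with DESeq2, 1358 with no filter, 43 in the fit of 8 libraries, and 111 to 241 with a library left out, where the lone sample of a group is assumed to vary like the others; the cause of these changes was not tested. With the replicate number as a block, 1 gene and 679 genes were called and Ep300 was at -1.71 (adjusted p = 0.256). Replicate deviations of the late 2-cell groups correlated at 0.05. Over 45 pairs of groups the correlation ran from -0.063 to 0.418, and 2 exceeded 0.1. With 2 libraries a group these values cannot tell whether the replicate numbers pair the samples. Leaving out siRNA late 8-cell replicate 1, the shallowest library, and control early 8-cell replicate 2, whose FPKM column did not match its counts, chosen after seeing the data, gave 1 and 1037 calls. DESeq2's size factors within edgeR gave 1 and 689. Uncalled genes near 0 changed sign: Phlda2 was 0.0148 with DESeq2 size factors, 0.0196 with DESeq2, 0.0429 in the fit of 4 libraries and 0.0548 and 0.0552 with limma. Ruvbl1 was 0.00336 in the fit of 4 libraries and 0.0153 and 0.0155 with limma. Dppa5a was -0.00438 in the fit of 8 libraries. With a library left out the ranges were -0.34 to 0.28 for Phlda2, -0.21 to 0.10 for Ruvbl1, -0.0285 to 0.0423 for Dppa5a, -0.13 to 0.31 for Acadl, -0.185 to 0.0288 for Mrpl18, -0.19 to 0.0143 for Ccnb1, -0.32 to 0.28 for Cd68 and -0.00531 to 0.063 for Crebbp. Of 1175 values of 91 named genes under alternatives, 1082 kept direction and side of the threshold, 68 passed it newly, 3 (all Wdfy1, given above) lost it and 22 changed sign. The smallest library held 5371159 reads, which limits what can be said of genes of a few CPM.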
